A study of Mus musculus with 18 samples.

Results

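The 46 genes described here are a chosen set of lysosome and autophagy genes, taken from a list of names. All 46 were found among the 55401 gene identifiers of the count table, 44 by their current symbol and 2, Tfeb and Tfe3, by an older one. They comprise 3 transcription factors, 7 membrane proteins and channels, 3 subunits of the proton pump, 8 proteases, 11 glycosidases, 3 sulfatases, 5 lipid hydrolases and carriers, and 6 autophagy genes. All 46 passed the filter on low counts in every comparison, Atg9b only through its level in the RAS groups.

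Poly(A) RNA was sequenced from 18 cultures of mouse embryonic fibroblasts (MEFs), primary cells grown from C57BL/6 embryos without head and viscera. In the S6K1 series, 3 S6K1 WT lines carried an empty vector (WT EV), 3 WT cultures of the same line numbers carried a retrovirus for a constitutively active HRAS mutant (WT RAS), and 3 S6K1 KO lines carried the same RAS virus (KO RAS). In the S6K1/S6K2 series, 3 lines each formed WT EV, WT RAS and, from S6K1/S6K2 DKO embryos, DKO RAS. Constitutive RAS drives normal fibroblasts into oncogene-induced senescence, a stable growth arrest with an inflammatory secretome. All cells went through drug selection after transduction. KO and WT lines of the S6K1 series came from littermates, whereas DKO embryos came from parents that were all S6K2 KO and their WT controls came from separate matings. KO and DKO cells with EV were not analysed here, and the effect of kinase loss is described under RAS alone.

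Total counts ran from 8319445 to 14402442 per library. Levels are given as CPM, counts relative to the library total, with TMM scaling factors set within each series, so that levels of the 2 series were scaled separately. Differences between groups are given as the log2 ratio of their fitted levels (a log2 fold change). Rps6kb1, the gene of S6K1, read 61.6, 70.9 and 74.6 CPM in WT RAS against 23.6, 31.3 and 37.00 for KO RAS, and 75.5, 83.7 and 82.7 against 34.5, 39.7 and 38.2 in WT RAS and DKO RAS. Its log2 ratio was -1.17 in KO RAS (adjusted p = 0.234, and 0.000101 with the replicate number as a block) and -1.11 in DKO RAS (adjusted p = 0.00908), with no overlap in either. Rps6kb2, the gene of S6K2, read 24.5, 24.1 and 28.9 CPM in WT RAS of the S6K1/S6K2 series and 2.68, 3.04 and 2.80 in DKO RAS. Hras rose with the RAS virus in both series (log2 ratio 0.93 with SE 0.14, adjusted p = 0.00290 and log2 ratio 0.75 with SE 0.15, adjusted p = 0.00568). All 10 fibroblast markers looked at were above 3 counts in every library. Macrophage markers, 28 in all, were also detected: at least 23 of them were above 3 counts in each library, and their summed level ran from 76.2 to 4857 CPM, a 63.7-fold range. For the S6K1 series the sums were 913 to 4387 CPM with EV, 970 to 4857 with RAS in WT cells and 330 to 1128 in KO RAS. For the S6K1/S6K2 series they were 212 to 1881 CPM (EV), 204 to 1305 (WT RAS) and 76.2 to 330 (DKO RAS). In bulk RNA, fewer cells of a type and less RNA per cell cannot be told apart.

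Lysosomes are acidic organelles in which soluble hydrolases degrade proteins, glycans and lipids delivered by endocytosis and autophagy. The vacuolar ATPase pumps protons into the lumen, while membrane glycoproteins such as LAMP1 and LAMP2 line the organelle. The transcription factors TFEB, TFE3 and MITF bind an E-box-containing element in the promoters of many lysosomal genes, and mTORC1, the kinase upstream of S6K, holds them in the cytoplasm when nutrients are plentiful. Senescent cells are known for an enlarged lysosomal compartment, and the beta-galactosidase activity by which they are stained is the product of Glb1.

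The promoters of the 46 genes were read to show where that element lies. RefSeq promoter sequences (GRCm38.p6) were at hand for 41 genes, with 49 entries, and the 250 bases before each RefSeq start were searched on both strands. The E-box CACGTG lay in 12 of the 49 member promoters (24.5%) and in 6.02% of all 32851 promoters. Its 8-base form TCACGTGA, the core of the element named CLEAR, contains the E-box and lay in 5 of 49 (10.2%), against 0.785% of all promoters. The 5 genes were Atp6v1a, Ctsa, Ctsd, Gla and Mcoln1. The AP-1 motif TGANTCA, which binds the factors FOS and JUN downstream of RAS signalling, lay in 3 of 49 (6.12%), those of Glb1, Neu1 and Psap, against 6.75% of all promoters. A match is a string of letters in a window, not a measured binding site.

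Of the promoters of the members that RAS moved, 2 of 7 entries of the members that were higher in either series (28.6%) and 2 of 11 entries of those that were lower (18.2%) held the E-box, and it was in 8 of the 31 entries of members called in neither (25.8%). The 8-base form was in none of the first 2 sets. 4 promoters are shown because they carry different combinations of these letters: Atg9b, with the largest rise under RAS, Glb1, the beta-galactosidase, Gaa, lower under RAS in both series, and Mcoln1, not called. Capitals mark every match to the 3 motifs.
Atg9b (chr5:24392144-24392393, - strand): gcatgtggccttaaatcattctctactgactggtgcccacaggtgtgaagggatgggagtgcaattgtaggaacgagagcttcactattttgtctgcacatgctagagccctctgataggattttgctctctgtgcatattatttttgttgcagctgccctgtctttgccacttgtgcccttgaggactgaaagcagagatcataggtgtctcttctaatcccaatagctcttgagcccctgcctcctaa
Glb1 (chr9:114400828-114401077, + strand): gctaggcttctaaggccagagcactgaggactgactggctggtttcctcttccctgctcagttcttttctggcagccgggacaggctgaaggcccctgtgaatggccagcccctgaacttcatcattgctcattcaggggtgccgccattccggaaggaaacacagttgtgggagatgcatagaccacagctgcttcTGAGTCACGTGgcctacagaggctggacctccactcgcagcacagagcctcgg
Gaa (chr11:119267713-119267962, + strand): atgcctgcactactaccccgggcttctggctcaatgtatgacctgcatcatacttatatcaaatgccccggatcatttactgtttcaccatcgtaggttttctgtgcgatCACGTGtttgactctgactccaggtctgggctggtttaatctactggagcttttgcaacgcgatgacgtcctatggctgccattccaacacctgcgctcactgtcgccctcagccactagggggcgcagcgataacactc
Mcoln1 (chr8:3500269-3500518, + strand): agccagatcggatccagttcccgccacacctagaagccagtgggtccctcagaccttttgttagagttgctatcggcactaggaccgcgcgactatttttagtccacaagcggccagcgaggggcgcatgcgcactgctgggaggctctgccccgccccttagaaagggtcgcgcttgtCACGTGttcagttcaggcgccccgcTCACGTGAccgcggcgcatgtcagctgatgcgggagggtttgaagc
The Atg9b window held none of the 3 motifs. In the Glb1 window an AP-1 match at 53 bases and an E-box at 48 bases before the start overlap. Gaa held a single E-box at 140 bases before the start. Mcoln1, a lysosomal calcium channel gene, held E-boxes at 71 and 45 bases, the latter within the 8-base form. The densest set of E-boxes was that of Lamp1, with 4 at 61, 45, 28 and 15 bases before its start.

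Per kilobase of exon sequence, the members spanned a wide range of levels. The highest mean over the 6 groups was that of Ctsl, the protease cathepsin L, at 1331 CPM per kb, followed by Lamp1 at 792, Psap (the precursor of the saposins, activators of sphingolipid breakdown) at 788, the cathepsins Ctsb at 767 and Ctsd at 689, and Cd63, a tetraspanin of the lysosomal membrane, at 483 CPM per kb. The 3 transcription factors were among the lowest 3, Tfe3 at 7.42, Mitf at 3.03 and Tfeb at 1.63 CPM per kb. In 27 of the 46 members the highest of the 18 libraries was less than 2 times the lowest, and the median ratio over members was 1.94. The same ratio was not counted over all genes, and it spans 2 series that were scaled separately. The ratio exceeded 3 in 5 members, Tfeb, Ctsl, Ctsk, Ctsh and Atg9b.

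**Figure D1:**
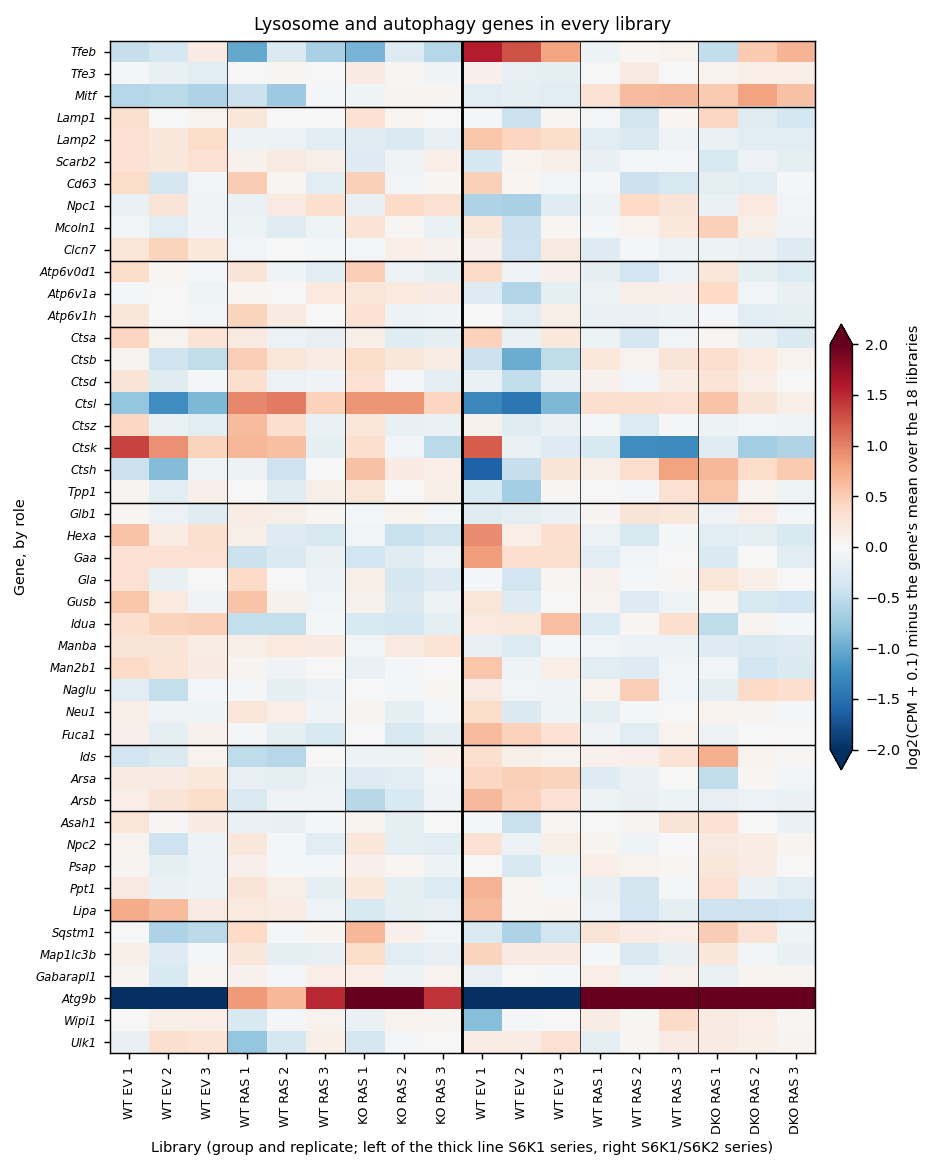
Heat map of the 46 genes (rows, in blocks by role) in the 18 libraries (columns), as log2(CPM + 0.1) minus the gene's mean over all libraries; the colour scale stops at 2 log2 units either way. Atg9b and Ctsl separate the EV from the RAS columns in both series, and most other rows are pale.

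The first question was what constitutive RAS did to these genes in WT cells. Few members moved in both series, and they moved both ways. Atg9b, a membrane protein of autophagosome formation, and Ctsl rose in both. Lamp2, Gaa (acid alpha-glucosidase, which breaks down glycogen) and Arsa (arylsulfatase A, which acts on sulfatides) fell in both. In the S6K1 series, 2 members were called higher (4.35% of the 46) and 4 lower (8.7%) at an adjusted p under 0.05, and of all genes tested 7.15% were called higher and 6.09% lower. In the S6K1/S6K2 series, 7 members were higher (15.2%) and 8 lower (17.4%), against 13.5% and 12.7% of all genes. The median log2 ratio of the members was -0.02 in each series, beside 0.0018 and -0.02 over all genes. The shares of members called were thus near those of all genes. Of the genes tested in both series, 5.77% were higher and 4.24% lower in both, as were 2 (4.35%) and 3 (6.52%) of the members. These were 2 of the 2 and 2 of the 7 members called higher, and 3 of the 4 and 3 of the 8 called lower.

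**Figure D2:**
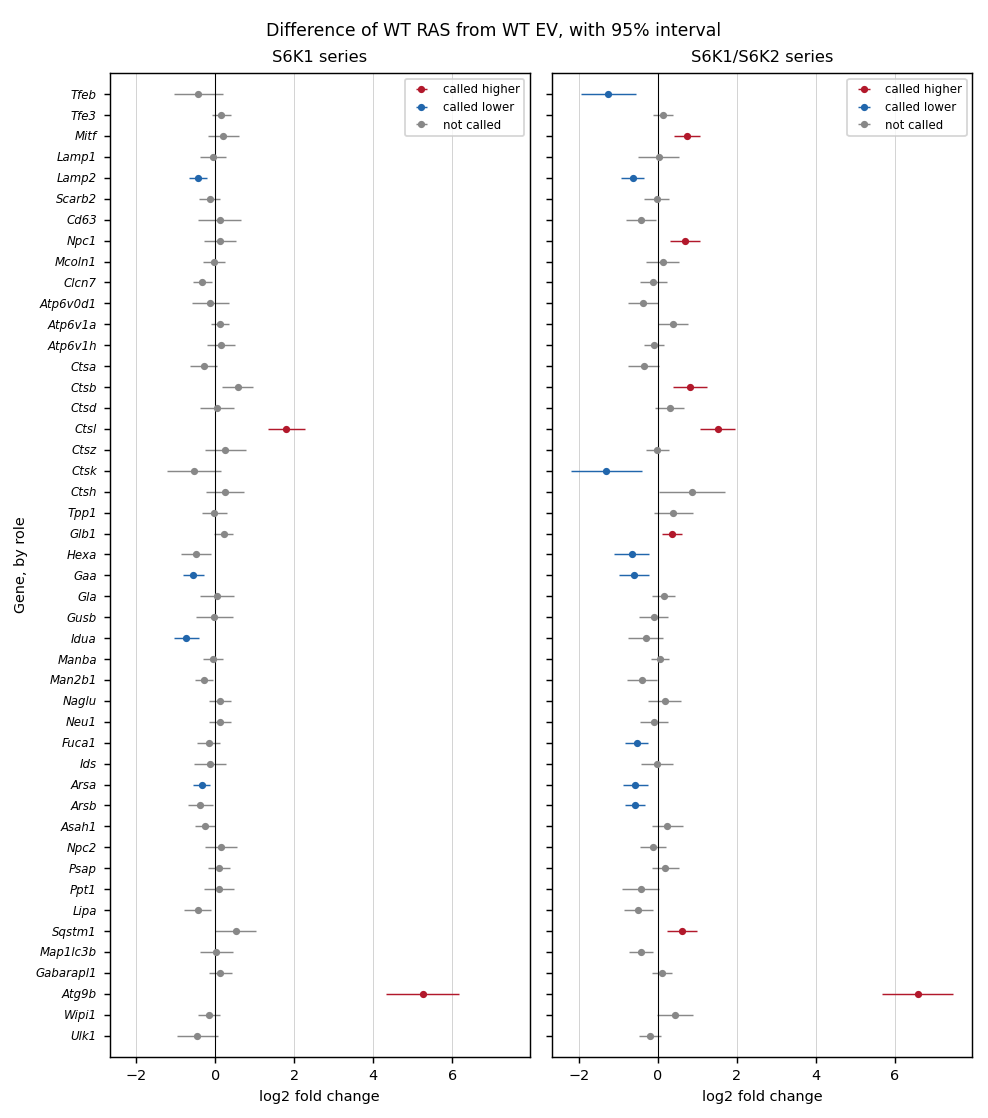
Difference of WT RAS from WT EV for each of the 46 genes in the S6K1 series (left) and the S6K1/S6K2 series (right), as the log2 ratio with its 95% interval (n = 3 libraries a group); red and blue mark genes called higher and lower at an adjusted p under 0.05. Atg9b at 5.25 and 6.59 and Ctsl at 1.80 and 1.52 stand to the right, and the other members lie between -1.30 and 0.87.

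Same-numbered EV and RAS cultures deviated together, and a fit blocked on that number called more members in the S6K1 series: 4 higher (8.7%) and 13 lower (28.3%), against 18.1% of all genes in each direction. It added Ctsb and Sqstm1 to the members called higher and Clcn7, Ctsa, Ctsk, Hexa, Man2b1, Arsb, Asah1, Lipa and Ulk1 to those called lower. For the S6K1/S6K2 series the block added Lipa and Map1lc3b, both lower, giving 7 higher and 10 lower (21.7%) against 15% and 13.7% of all genes. By the plain criterion that the 3 RAS libraries lie outside the range of the 3 EV libraries, 5 members were higher and 10 lower in the S6K1 series and 11 and 11 in the S6K1/S6K2 series. Levels of other cell markers also moved with RAS: the summed level of 10 fibroblast markers was 43710 to 54125 CPM in the EV libraries and 23836 to 35676 in the WT RAS libraries, but this sum is mostly that of a few genes. Col1a1 (-1.90 and -2.06 on the log2 scale in the 2 series), Col1a2 (-1.43 and -1.76), Col3a1 (-1.87 and -2.23) and Pdgfrb (-1.74 and -1.62) were called lower in both, while Fn1, Thy1, Pdgfra, Vim, Dcn and S100a4 were called in neither, with log2 ratios from -0.73 to 0.79. The sum of 6 epithelial markers was 8.05 to 18.4 CPM with EV and 145 to 175 CPM in WT RAS. That of 6 muscle markers was 56.7 to 86.2 against 151 to 168 CPM in the S6K1 series and 7.51 to 41.4 against 77.4 to 232 CPM in the S6K1/S6K2 series. Their part in the members' values was not tested. The non-overlap held for 15.9% and 15% of all genes in the S6K1 series and for 20.9% and 21.7% in the S6K1/S6K2 series.

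Among the autophagy genes, Atg9b (chr5:23889999-23897961, minus strand, NCBIM37) changed most. Its level was 0.487, 0.596 and 1.28 CPM in WT EV and 25.5, 22.2 and 40.3 CPM in WT RAS of the S6K1 series, and 0.262, 0.884 and 1.40 against 92.9, 99.6 and 56.2 CPM in the S6K1/S6K2 series. The EV libraries held 3 to 16 counts of Atg9b each and the WT RAS libraries 285 to 860, with no overlap. The rise was 38.1-fold and 96.3-fold (log2 ratio 5.25 with SE 0.41, adjusted p = 0.000151, and log2 ratio 6.59 with SE 0.40, adjusted p = 3.26e-05). Atg9b overlaps Nos3 on the opposite strand over 294 exon bases, 7.45% of the gene, and Nos3 itself had 0 to 15 counts in all 18 libraries. Sqstm1, the gene of the autophagy receptor p62, rose in the S6K1/S6K2 series, from 521, 415 and 496 to 764, 712 and 701 CPM (log2 ratio 0.60 with SE 0.17, adjusted p = 0.0273). The S6K1 series gave 637, 414 and 439.8 against 842, 625 and 662 CPM, with overlapping groups (log2 ratio 0.51, adjusted p = 0.200, and 0.00155 with the replicate number as a block). Each RAS culture was above the EV culture of its number. Map1lc3b, which encodes the autophagosome protein LC3B, read 123, 95.2 and 109.8 CPM in WT EV and 132, 100.1 and 101 in WT RAS of the S6K1 series (adjusted p = 0.949). Its S6K1/S6K2 series levels were 154, 128 and 127 and 111, 92.5 and 102 CPM, lower in every RAS library (log2 ratio -0.42, adjusted p = 0.0504, and 0.0208 with the block). The other 3 autophagy genes, Gabarapl1, Wipi1 and Ulk1, were called in neither series without the block, with log2 ratios from -0.45 (Ulk1, S6K1 series) to 0.44 (Wipi1, S6K1/S6K2 series).

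The cathepsins moved apart from one another. Ctsl (chr13:64464522-64471614, minus strand, NCBIM37) read 1329, 966 and 1218 CPM in WT EV and 4445, 4658 and 3125 in WT RAS of the S6K1 series, and 937, 828 and 1224 against 2855, 2878 and 2826 CPM in the S6K1/S6K2 series. Every RAS library was above every EV library, and the rise was 3.48-fold and 2.86-fold (log2 ratio 1.80 with SE 0.21, adjusted p = 0.000858, and log2 ratio 1.52 with SE 0.20, adjusted p = 0.000889). Ctsb, an abundant cysteine protease like Ctsl, rose in the S6K1/S6K2 series from 2599, 1772 and 2473 to 4087, 3684 and 4200.4 CPM (log2 ratio 0.81 with SE 0.19, adjusted p = 0.0139). Its levels in the S6K1 series were 3648, 2659 and 2494 and 4938, 4182 and 3907 CPM, also without overlap, at an adjusted p of 0.0666 and of 0.00170 with the block. Ctsk (chr3:95303208-95313284, plus strand, NCBIM37), a collagen-degrading protease best known from osteoclasts, moved the other way: it fell in the S6K1/S6K2 series from 173, 68.2 and 61.97 to 60.2, 31.4 and 31.1 CPM (log2 ratio -1.30 with SE 0.40, adjusted p = 0.0385). Ctsk of the S6K1 series read 189, 141 and 102 and 118, 113 and 65.4 CPM, overlapping groups in which each RAS culture was below the EV culture of its number (adjusted p = 0.295, and 0.00119 with the block). The EV library of line 1 in the S6K1/S6K2 series had the highest Ctsk and the highest macrophage level of its group. Without it Ctsk was no longer called, at a log2 ratio of -0.67, nor was it without WT RAS replicate 2 or 3. With the macrophage level added to the fit as a term, chosen after the data were seen, Ctsk was called in both series. Ctsd, the main aspartic protease of the lysosome, read 2063, 1458 and 1674 against 2154, 1586 and 1629.5 CPM and 1568, 1219.7 and 1574 against 1827, 1651 and 1897 CPM and was called in neither series (adjusted p = 0.907 and 0.197). Ctsa, Ctsz, Ctsh and Tpp1 were not called either (Ctsa was with the block in the S6K1 series, adjusted p = 0.0188), with log2 ratios between -0.35 and 0.87. Ctsh spread widely among its EV lines. In the S6K1/S6K2 series its EV libraries read 18.3, 41.02 and 66.96 CPM and its RAS libraries 61.3, 70.9 and 98.1 CPM.

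**Figure D3:**
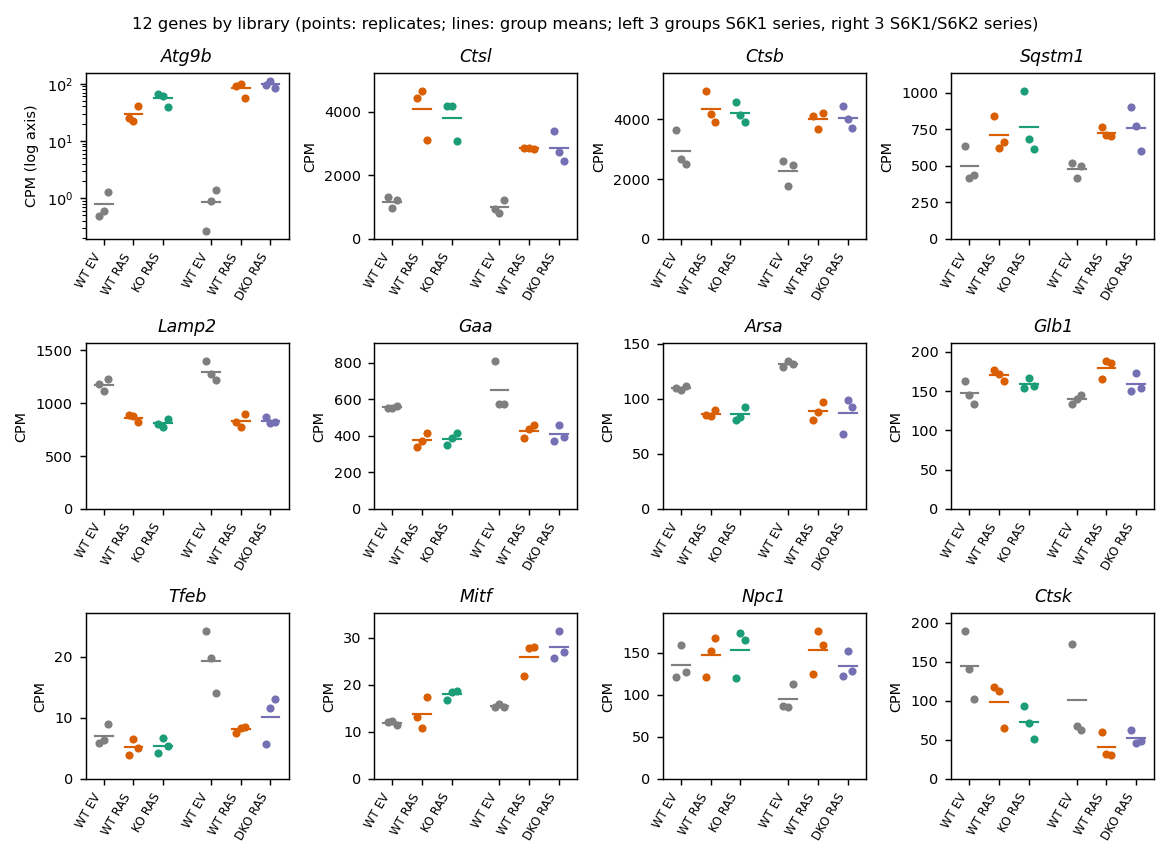
CPM in each library for 12 genes (points are libraries, lines are means of 3; the Atg9b axis is logarithmic, the others start at 0). The left 3 groups of each panel are WT EV, WT RAS and KO RAS of the S6K1 series, the right 3 WT EV, WT RAS and DKO RAS of the S6K1/S6K2 series; Atg9b runs from 0.262 CPM to 113 CPM, while the Glb1 libraries all sit between 133 and 189 CPM.

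Among the glycosidases the called members were mostly lower. Gaa (chr11:119129201-119146768, plus strand, NCBIM37) read 554, 553 and 561 CPM in WT EV and 339, 374 and 417 in WT RAS of the S6K1 series, and 809, 572 and 571 against 389, 437 and 459 CPM in the S6K1/S6K2 series. The groups did not overlap in either series, and Gaa fell (log2 ratio -0.56 with SE 0.12, adjusted p = 0.0130, and log2 ratio -0.60 with SE 0.17, adjusted p = 0.0275). Idua (chr5:109089350-109113576, plus strand, NCBIM37), the iduronidase of heparan and dermatan sulfate breakdown, fell in the S6K1 series from 42.7, 45.9 and 46.9 to 24.2, 24.2 and 32.9 CPM (log2 ratio -0.74 with SE 0.14, adjusted p = 0.00922), whereas in the S6K1/S6K2 series it read 38.7, 38.8 and 51.05 against 27.99, 34.1 and 42.2 CPM (adjusted p = 0.288). Hexa, the alpha subunit of the ganglioside-degrading hexosaminidase, was lower in every RAS library than in every EV library of both series. It read 542, 402 and 454 against 394, 304 and 292 CPM, and 701, 397 and 456 against 336, 292 and 355 CPM, with adjusted p-values of 0.0927 (0.000819 with the block) and 0.0367. Fuca1, the alpha-fucosidase, fell in the S6K1/S6K2 series from 168, 149 and 132 to 103, 93.01 and 113 CPM (log2 ratio -0.54 with SE 0.13, adjusted p = 0.0127). In the S6K1 series its log2 ratio was -0.17 with an adjusted p of 0.451.

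Glb1 went against the other glycosidases that were called. Glb1 (chr9:114310194-114383495, plus strand, NCBIM37) read 163, 146 and 134 CPM in WT EV and 176, 172 and 163 in WT RAS of the S6K1 series, where the groups overlapped (log2 ratio 0.21 with SE 0.11, adjusted p = 0.256). In the S6K1/S6K2 series it rose from 133, 141 and 145 to 165, 189 and 185 CPM, a 1.29-fold difference without overlap (log2 ratio 0.36 with SE 0.11, adjusted p = 0.0384). The table held 2 identifiers for Glb1, and the one with the longest gene model was used, of whose exon bases 5.62% lie in the other. Gla, Gusb, Manba, Man2b1, Naglu and Neu1 were called in neither series without the block, with log2 ratios between -0.39 and 0.17.

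The sulfatases were all below 0 in log2 ratio in both series. Arsa (chr15:89302907-89307856, minus strand, NCBIM37) read 109.8, 108 and 111 CPM in WT EV and 85.6, 83.9 and 90.1 in WT RAS of the S6K1 series, and 129, 134 and 131 against 80.9, 88.2 and 96.9 CPM in the S6K1/S6K2 series, with tight groups that did not overlap (log2 ratio -0.34 with SE 0.10, adjusted p = 0.0468, and log2 ratio -0.57 with SE 0.15, adjusted p = 0.0192). Arsb, which removes sulfate from dermatan sulfate, fell in the S6K1/S6K2 series from 164, 145 and 129 to 98.7, 94.7 and 98.3 CPM (log2 ratio -0.59 with SE 0.11, adjusted p = 0.00555). For the S6K1 series the groups were 115, 126 and 134 and 86.2, 101 and 99.9 CPM, again apart, at an adjusted p of 0.111 and of 0.00466 with the block. Ids, the iduronate sulfatase, was not called (log2 ratios -0.14 and -0.01). Of the lipid hydrolases and carriers, Asah1, Npc2, Psap, Ppt1 and Lipa, none was called without the block. Lipa, which hydrolyses cholesteryl esters, came closest: it read 254, 236 and 173 against 175, 168 and 144 CPM and 236, 155 and 157 against 139.5, 116 and 134 CPM (log2 ratios -0.44 and -0.49, adjusted p = 0.0926 and 0.0556, and 0.0146 and 0.0446 with the block).

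Of the 7 membrane proteins and channels, Lamp2 (chrX:35754534-35809631, minus strand, NCBIM37), a gene of the lysosomal membrane with a role in chaperone-mediated autophagy, fell in both series. Its level was 1179, 1117 and 1225 CPM in WT EV and 884, 879.5 and 823 in WT RAS of the S6K1 series, and 1399.8, 1273 and 1216 against 819.9, 779 and 902 CPM in the S6K1/S6K2 series (log2 ratio -0.44 with SE 0.10, adjusted p = 0.0216, and log2 ratio -0.64 with SE 0.13, adjusted p = 0.00751). The groups stood well apart in both. Lamp1, its close relative, did not follow: it read 2209.5, 1771 and 1855 against 2056, 1772 and 1748 CPM and 1727, 1303 and 1798 against 1725, 1374 and 1812 CPM, with overlapping groups and log2 ratios of -0.07 (95% interval -0.39 to 0.26) and 0.02 (-0.50 to 0.55). Npc1, the cholesterol exporter of the lysosomal membrane, rose in the S6K1/S6K2 series from 87.2, 85.4 and 113 to 124, 176 and 159 CPM (log2 ratio 0.69 with SE 0.17, adjusted p = 0.0157). Npc1 of the S6K1 series read 122, 159.6 and 127 and 122, 152 and 168 CPM with an adjusted p of 0.733. Scarb2, Cd63, Mcoln1 and Clcn7 were called in neither series without the block, nor were the proton pump subunits Atp6v0d1, Atp6v1a and Atp6v1h, whose log2 ratios lay between -0.37 and 0.38.

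The 3 transcription factors differed in direction. Tfeb (chr17:47873979-47929368, plus strand, NCBIM37) fell in the S6K1/S6K2 series from 24.3, 19.8 and 14.1 to 7.56, 8.34 and 8.52 CPM (log2 ratio -1.25 with SE 0.31, adjusted p = 0.0160), and read 5.85, 6.33 and 9.07 against 3.93, 6.62 and 5.14 CPM in the S6K1 series (log2 ratio -0.43, adjusted p = 0.372). Its EV level was thus higher in the S6K1/S6K2 series, with no overlap between the EV lines of the 2 series, which were scaled separately. Mitf (chr6:97757052-97971352, plus strand, NCBIM37) rose in the S6K1/S6K2 series from 15.4, 15.8 and 15.3 to 21.9, 27.7 and 28.1 CPM (log2 ratio 0.74 with SE 0.15, adjusted p = 0.00596), and in the S6K1 series it read 12.04, 12.3 and 11.5 against 13.2, 10.7 and 17.4 CPM, where the RAS lines lay on both sides of the EV lines (adjusted p = 0.514). Tfe3 was the steadiest of the 46 genes, with a highest library only 1.33 times its lowest. It read 66.5, 61.9 and 58.4 against 68.6, 70.4 and 68.4 CPM and 73.5, 60.8 and 60.7 against 68.1, 77.5 and 67.9 CPM (adjusted p = 0.401 and 0.431).

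Many of these calls were lost when a single library was left out. A fit without 1 library also has less power, so a lost call alone does not show a changed estimate. In the S6K1 series, Atg9b, Ctsl and Idua stayed called when each of the 6 compared libraries was left out in turn. Gaa lost its call without WT RAS replicate 1 or 2 (highest adjusted p 0.0620), and Lamp2 and Arsa lost theirs without any 1 of the 6 libraries, at adjusted p-values of up to 0.0879 and 0.193 and log2 ratios that stayed between -0.47 and -0.41 and between -0.37 and -0.31. In the S6K1/S6K2 series, 5 of the 15 called members, Atg9b, Ctsl, Mitf, Lamp2 and Arsb, stayed called without each library. Leaving out WT RAS replicate 2 had the largest effect there: 6 of the 15 were then called, and Tfeb, Npc1, Ctsk, Glb1, Hexa, Gaa, Fuca1, Arsa and Sqstm1 were not, at adjusted p-values up to 0.133. Calls of 4 to 6 of the 15 were lost without WT EV replicate 1 or 2 or WT RAS replicate 1 or 3, leaving 9 to 11, and none was lost without WT EV replicate 3. The direction of every called member held in all of these fits. They share most of their libraries with the main fit and follow only members already called, so a change of direction was unlikely from the start. The library kit marks strand, but whether the counting used strand is not given in the sources used here, so reads of genes on the opposite strand may be included. Such a gene overlaps 45.3% of the exon bases of Arsb (Gm17447, without counts here), 18.8% of Arsa (C230037L18Rik) and 17.3% of Sqstm1 (3010026O09Rik). It overlaps 16.2% of Ctsb (Fdft1), 2.95% of Idua (Dgkq) and 3.51% of Ppt1 (Cap1). Over the libraries C230037L18Rik had 7 to 31 counts (Arsa 689 to 1578) and 3010026O09Rik 22 to 54 (Sqstm1 4699 to 11130). Fdft1 had 294 to 810 (Ctsb 20038 to 57839), Dgkq 270 to 458 (Idua 238 to 616) and Cap1 3556 to 11527 (Ppt1 1044 to 2927). Their part was not tested.

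The difference of the RAS effects between the 2 series was tested itself, over all 18 libraries. No member was called, nor was any of the 14483 genes tested (0% higher and 0% lower), by edgeR's quasi-likelihood test, while 4 members (8.7%) and 12.6% of all genes had an unadjusted p under 0.05. The 4 were Mitf, Npc1, Asah1 and Wipi1, all with the higher log2 ratio in the S6K1/S6K2 series, by 0.53, 0.56, 0.49 and 0.59. For Atg9b the difference was 1.33 with a 95% interval of -0.08 to 2.74, and for Tfeb -0.83 (-1.73 to 0.07). DESeq2 called 143 genes and the fit blocked on replicate number 58, none of them a member. A call in 1 series and not in the other is therefore not shown to be a difference between the series. The sign of the log2 ratio was the same in both series for 33 of the 46 members, and for all 16 that were called in at least 1 series. The share of all genes with the same sign was not counted, so these counts are not shown to be particular to the members. The 16 include members called in the same direction in both series, so their agreement is partly set by that choice.

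The second question was what loss of S6K1, or of S6K1 and S6K2, did to these genes in cells that all carried RAS. No member was called in either comparison by edgeR's quasi-likelihood test, or by DESeq2. Of all genes, 0% were called higher and 0.00712% lower in KO RAS, and 0.0072% higher and 0.0144% lower in DKO RAS. With an unadjusted p under 0.05 stood 1 member, Atg9b, in KO RAS, where 6.86% of all genes did, and no member in DKO RAS, where 1.29% did. KO RAS lay outside the range of WT RAS for 2 members on the higher side (Ctsh and Naglu, against 3.85% of all genes) and 1 on the lower (Lipa, against 4.17%). DKO RAS did so for Npc2, on the higher side, and Manba, on the lower, against 3.02% and 3.05% of all genes. The median log2 ratio over the 46 members was 0.0011 in KO RAS and 0.03 in DKO RAS, beside 0.03 and -0.00029 over all genes.

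The single members were measured closely enough to bound most changes. In both comparisons the 95% interval of the log2 ratio lay inside -1 and 1 for 44 of the 46 members, with a median reach of 0.34 to either side (KO RAS) or 0.38 (DKO RAS). The exceptions were Atg9b and Ctsk in KO RAS and Tfeb and Ctsk in DKO RAS. A p above the threshold does not show that KO or DKO cells were like WT cells within those intervals.

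**Figure D4:**
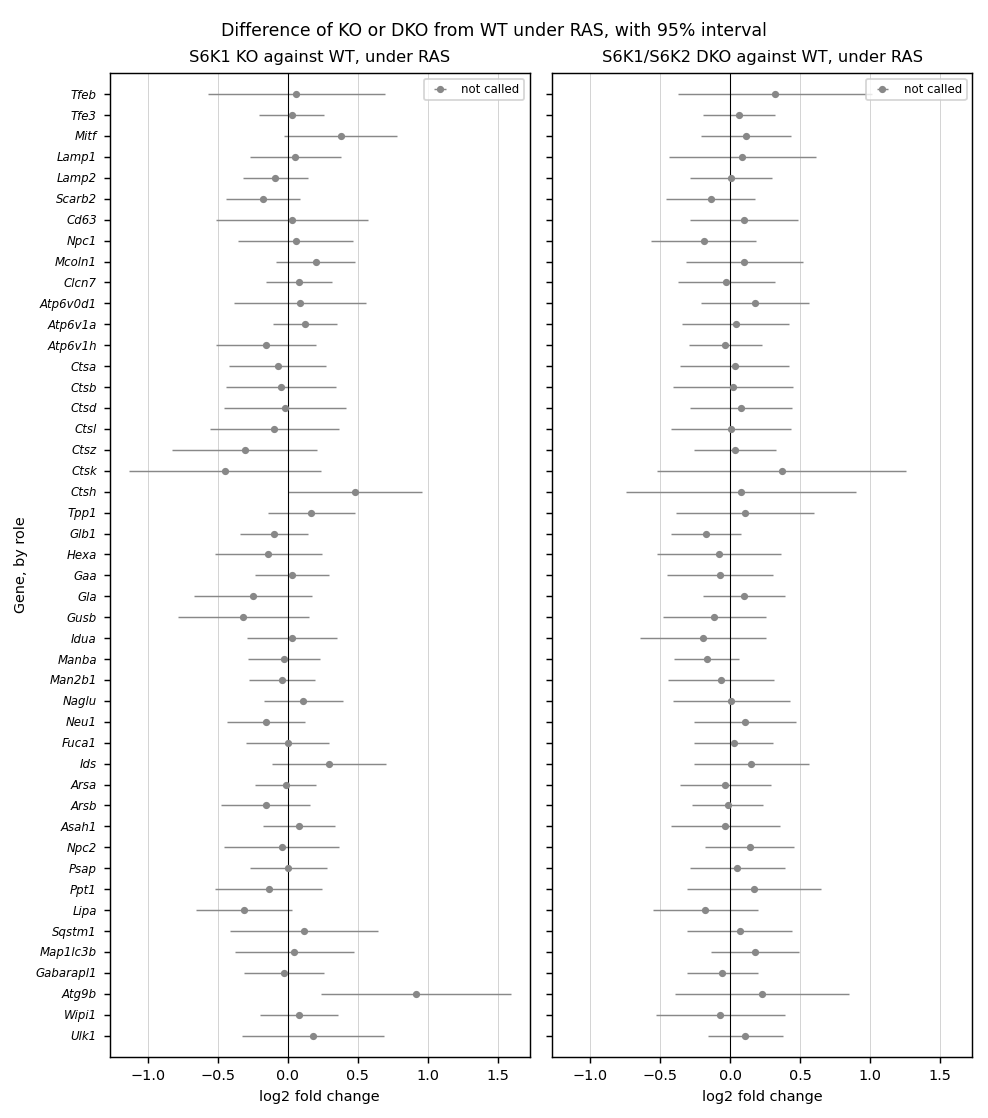
Difference of KO RAS from WT RAS in the S6K1 series (left) and of DKO RAS from WT RAS in the S6K1/S6K2 series (right) for the 46 genes, as the log2 ratio with its 95% interval (n = 3 libraries a group). All points are grey, since no gene was called, and all but Atg9b at 0.91 in KO RAS lie between -0.45 and 0.48.

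Of the members that RAS moved most, none was called in KO RAS or DKO RAS. Atg9b read 25.5, 22.2 and 40.3 CPM in WT RAS against 66.8, 60.4 and 38.6 for KO RAS, groups that overlapped (log2 ratio 0.91, SE 0.30, unadjusted p = 0.0138, adjusted p = 0.587, and 0.0849 with the replicate number as a block). For the S6K1/S6K2 series Atg9b read 92.9, 99.6 and 56.2 against 94.3, 113 and 84.1 CPM in DKO RAS (log2 ratio 0.23, 95% interval -0.39 to 0.85). Ctsl read 4181, 4182 and 3076 CPM in KO RAS and 3400.4, 2730.3 and 2462 in DKO RAS, overlapping with WT RAS, with log2 ratios of -0.10 (-0.56 to 0.36) and 0.01 (-0.43 to 0.44). Lamp2 read 804, 779 and 849 CPM in KO RAS and 869.8, 812 and 825 in DKO RAS, for differences of -0.09 (-0.32 to 0.14) and 0.00 (-0.29 to 0.30). These intervals hold 0 and exclude a change of 1 log2 unit either way for Ctsl and Lamp2.

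Glb1 read 154, 167 and 157 CPM in KO RAS and 150.2, 174 and 154 in DKO RAS, overlapping with WT RAS in both series (log2 ratios -0.10, -0.34 to 0.14, and -0.17, -0.42 to 0.08). Lamp1 read 2186, 1823 and 1774 and 2348, 1491 and 1379 CPM, with log2 ratios of 0.05 and 0.09. Ctsd read 2123, 1670.3 and 1501 and 2079.9, 1878 and 1702 CPM, with log2 ratios of -0.02 and 0.07. Both groups overlapped with WT RAS for Lamp1 and for Ctsd.

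The log2 ratios of the 3 transcription factors were all above 0 in both comparisons and none was called. Tfeb read 4.18, 6.74 and 5.42 CPM in KO RAS and 5.75, 11.7 and 13.1 in DKO RAS (0.06 and 0.32 on the log2 scale). Tfe3 read 76.6, 69.7 and 65.2 and 72.05, 75.4 and 75.2 CPM (0.03 and 0.06). Mitf read 16.7, 18.5 and 18.6 and 25.8, 31.4 and 26.98 CPM (0.38 and 0.11). Each group overlapped with WT RAS. Sqstm1 read 1012, 681 and 614 and 904, 776 and 601 CPM and Map1lc3b 146, 97.2 and 101 and 133, 109 and 103 CPM, with overlap throughout and log2 ratios of 0.12 and 0.07 for Sqstm1 and 0.05 and 0.18 for Map1lc3b.

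With the replicate number as a block, KO RAS gave 1 called member, Ctsk, which was lower (log2 ratio -0.45, adjusted p = 0.0219), among 0.549% of all genes called higher and 3.61% called lower. Ctsk read 118, 113 and 65.4 CPM in WT RAS against 93.6, 71.7 and 51.3 for KO RAS, each KO line below the WT line of its number. In DKO RAS it read 62.8, 46.5 and 49.00 CPM against 60.2, 31.4 and 31.1 in WT RAS, and the groups overlapped. The macrophage level was lower in each KO RAS line than in the WT RAS line of its number, though the groups overlapped. Lyz2, the lysozyme of macrophages, read 1865, 1809.9 and 395 CPM in WT RAS against 459, 419 and 140.5 for KO RAS, and 551, 104 and 156 against 123, 29.4 and 41.96 CPM in DKO RAS. The Lyz2 groups overlapped in both series. With the macrophage level as a term and no block, no member was called in KO RAS, as without that term. The KO comparison was not fitted with both the block and the term. The part of the macrophage level in the Ctsk value called with the block was therefore not tested. The difference of the 2 loss effects was tested as well: no member was called, none had an unadjusted p under 0.05, and of all genes 0% were called higher, 0.0069% lower, and 1.23% had an unadjusted p under 0.05.

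The macrophage level was then used to find which members follow it across the libraries. A slope on the log2 summed CPM of the 28 macrophage genes was fitted with the 6 groups as terms, so that it rests on differences among lines of the same group. EV and RAS cultures of the same line number count as separate samples in this fit although they deviated together, so its p-values may be too small, and the values with the replicate number as a block are given after them. Of the members, 8 (17.4%) had a positive slope at an adjusted p under 0.05 and 1 (2.17%) a negative one, against 11.6% and 10.9% of all genes. Ctsk had the steepest slope, gaining 0.39 on the log2 scale per doubling of the macrophage level (SE 0.04, adjusted p = 2.92e-06). In WT EV of the S6K1/S6K2 series, for example, Ctsk read 173, 68.2 and 61.97 CPM where Lyz2 read 603, 79.6 and 94.4 CPM. The other 7 had slopes of 0.16 (Ppt1, a thioesterase that removes palmitate, adjusted p = 0.00698), 0.15 (Gusb, beta-glucuronidase, 0.0120), 0.15 (Atp6v0d1, 0.0180), 0.14 (Cd63, 0.0418), 0.13 (Lipa, 0.0139), 0.13 (Ctsz, 0.0359) and 0.12 (Hexa, 0.0487). Idua had a negative slope of -0.12 per doubling (adjusted p = 0.0325).

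**Figure D5:**
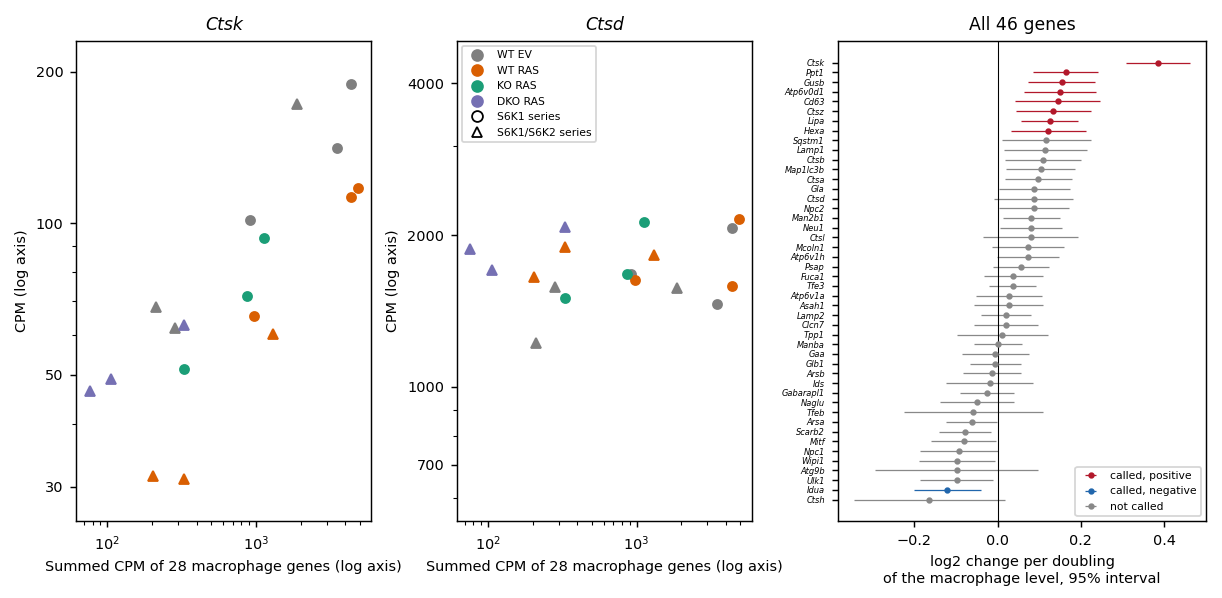
Left and middle, CPM of Ctsk and Ctsd in each of the 18 libraries against the summed CPM of 28 macrophage genes, on log axes that span the same fold. Right, the slope of each of the 46 genes on that level with its 95% interval, in log2 units per doubling; Ctsk at 0.39 lies apart from the other members, all between -0.16 and 0.16.

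For comparison, Ctss, a cathepsin of immune cells that is not among the 46 genes, had a slope of 1.02 per doubling (SE 0.03), and Cd68, a lysosomal glycoprotein of macrophages, had 0.72 (SE 0.10). Without the block, slopes near 0 were those of Glb1 (-0.01), Gaa (-0.01), Lamp2 (0.02) and Manba (0.00). Ctsl (0.08, adjusted p = 0.293), Ctsd (0.09, 0.162), Lamp1 (0.11, 0.0866), Sqstm1 (0.12, 0.101), Map1lc3b (0.10, 0.0665) and Atg9b (-0.10, 0.445) were not called. With the replicate block the slopes of Glb1, Gaa, Lamp2 and Manba were 0.07, 0.48 (SE 0.18), 0.18 and 0.06, none of them called. The macrophage level differed mainly between lines: replicate 3 of the S6K1 series and replicates 2 and 3 of the S6K1/S6K2 series were the low ones in every group. Without each of the 18 libraries in turn, Ctsk, Gusb and Ppt1 stayed called, and the other 6 members lost their call without at least 1. With the replicate number as a block, 0.602% of all genes had a positive and 0.609% a negative slope, none of the 9 members was called (Ctsk 0.71, adjusted p = 0.0570), and Ctsh was, at -1.30 (adjusted p = 0.0440). The blocked slopes of the rest of the 9 were 0.58 (Lipa), 0.51 (Hexa), 0.43 (Cd63), 0.40 (Ctsz), 0.26 (Ppt1), 0.21 (Gusb), 0.12 (Idua) and -0.028 (Atp6v0d1). The macrophage level and other differences between the lines cannot be told apart. Within the S6K1 series alone and within the S6K1/S6K2 series alone, Ctsk was still called and the other 7 positive members were not.

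A wider list of 100 lysosome and autophagy genes that are not members was read beside them, in 5 groups by role. Of 25 further hydrolases and their activators, 5 were lower and none higher in the S6K1 series, and 9 were lower and 2 higher in the S6K1/S6K2 series. Of all genes, 6.09% and 12.7% were lower and 7.15% and 13.5% higher. With the replicate block, 12 were lower and 2 higher in the S6K1 series, and 11 lower and 3 higher in the S6K1/S6K2 series, against the 18.1% in each direction, 13.7% and 15% of all genes given above. Scpep1, a serine carboxypeptidase (-0.79 and -0.72 on the log2 scale), Sgsh, the heparan sulfate sulfamidase (-0.49 and -0.61), and Man2b2, a mannosidase (-0.43 and -0.54), fell in both. Ctso, a further cathepsin (-0.91), and Dpp7, a dipeptidyl peptidase (-0.79), led those that fell in the S6K1/S6K2 series. Galc (0.55) and Galns (0.52), which act on galactolipids and keratan sulfate, rose there. The medians over the 25 were -0.18 and -0.41. Of 21 further membrane and nutrient-sensing genes, 3 were higher in each series, the same 3, Rragd (0.82 and 1.56), Cln3 (1.05 and 0.67) and Laptm4b (0.96 and 0.51). Rragd encodes a Rag GTPase of the complex that recruits mTORC1 to the lysosome. Lamtor1 and Lamtor4, of the scaffold that anchors it, were lower in the S6K1/S6K2 series (-0.72 and -0.60), and no gene of the list was lower in the S6K1 series. The block gave 5 higher and 3 lower in the S6K1 series, and 3 and 2 in the S6K1/S6K2 series.

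Of 34 further autophagy genes, 3 were higher and 1 lower in the S6K1 series, and 7 higher and 1 lower in the S6K1/S6K2 series. With the block, 9 were higher and 6 lower, and 5 and 3. Of all genes, 7.15% and 13.5% were higher and 6.09% and 12.7% lower in the 2 series. Blocked, these shares were 18.1% and 15% higher and 18.1% and 13.7% lower. They also stand beside the RAS counts of the ATPase and sorting genes below. Wipi2 (0.57 and 0.49) and Atg12 (0.41 and 0.60), which act in the forming of the autophagosome, were higher in both. Atg101 (0.69) was higher and Rb1cc1 (-0.69) lower in the S6K1 series, both of the complex around the kinase ULK1. Epg5 (1.43), Bnip3, a mitophagy receptor (1.07), and Vmp1 (0.77) led the rises of the S6K1/S6K2 series, where Atg3 (-0.72) was lower. Of 14 further subunits of the vacuolar ATPase, none was called in the S6K1 series and 1 in the S6K1/S6K2 series, Atp6v0a1 (0.90). Of 6 genes of enzyme sorting, none was called in the S6K1 series, and M6pr, a mannose 6-phosphate receptor (0.57), rose and Gnptg, a subunit of the enzyme that makes its tag (-1.16), fell in the S6K1/S6K2 series. With the block, 3 of the ATPase subunits were higher in the S6K1 series and 1 in the S6K1/S6K2 series, and of the sorting genes 1 was higher and 2 lower, and 2 and 1. Without the block, no gene of the 5 lists was called in KO RAS or DKO RAS. With it, 4 were lower in KO RAS, against 3.61% of all genes: Ctss (-2.25, adjusted p = 4.12e-05), Cd68 (-1.75, 0.000233), Ctsc (-0.73, 0.0274) and Scpep1 (-0.44, 0.0196). All 4 are also among those with a positive slope on the macrophage level, which was lower in each KO RAS line than in the WT RAS line of its number. Its part was not tested. On the macrophage level, 9 of the 14 further ATPase subunits had a called positive slope and none a negative one, against 11.6% and 10.9% of all genes, led by Atp6v0c (0.17), Atp6v1f (0.16) and Atp6v1g1 (0.16 per doubling). Of the other lists, 6 of 25 hydrolases, 7 of 21 membrane genes, 2 of 34 autophagy genes and 2 of 6 sorting genes had positive called slopes, and 1, 1, 3 and 2 had negative ones. With the replicate block, under which 0.602% of all genes were positive and 0.609% negative, none of the 14 ATPase subunits or 6 sorting genes was called. Ctss and Cd68 were still called positive with it, and Epg5 of the autophagy genes was negative.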

How the data were processed

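Raw gene counts of 18 libraries, as deposited, were the only values used. Per the labels and the study's methods, RNA was extracted with Trizol and libraries were made with a stranded mRNA kit. The submitters' processing notes name CASAVA, STAR 2.7.1a, DESeq2 1.28.1 and the build mm10, whereas the methods name TopHat, mm9 and HTSeq, and the sources used here do not settle which of these made the counts. Identifiers (55401, of which 32589 were paired with a symbol and held 99.1% of counts) were matched to the NCBIM37 annotation of the reference table.

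Counts were filtered (filterByExpr, minimum count 10), TMM-scaled within each series of 9 libraries and tested with edgeR 4.0.16 (R 4.3.3, limma 3.58.1) by the two-sided quasi-likelihood test, with Benjamini-Hochberg adjustment over all genes and a threshold of 0.05. Differences between series and the macrophage slope were fitted over 18 libraries. DESeq2 1.42.0, other scalings, filters and sample sets, a replicate block and leaving out each library were alternatives. Same-numbered samples correlated in their deviations by 0.684, 0.444 and 0.668 (RAS, S6K1 series), 0.366, 0.293 and 0.308 (RAS, S6K1/S6K2 series) and 0.692, 0.393 and 0.616 (KO). In DKO the correlations were 0.279, 0.454 and -0.04. The main fits did not use these numbers as pairs. The replicate block, an alternative, used them in every comparison, DKO included. The RAS comparison of each series and the macrophage slope were tried on simulated data with independent libraries. The other tests were not. P-values within a group comparison measure the spread between embryo lines. The slope fit also counts EV and RAS cultures of a line number as separate samples. The 46 genes, the lists and the tests were chosen with earlier results of these data known. Members called in a comparison and 8 fixed members (Glb1, Lamp1, Ctsd, Tfeb, Tfe3, Mitf, Sqstm1, Map1lc3b) are given by library, and of the other lists up to 3 called genes per direction with the largest change are named.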

Additional observations from a re-analysis of the deposited data

How the results depend on the processing

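The call of a single member rests on 3 libraries a group, and most calls were lost in at least 1 setting. Without each library, 3 of 6 and 5 of 15 RAS calls and 3 of 9 slope calls held. In all other settings that tested the gene, 4 of 6, 11 of 15 and 0 of 9 held. Atg9b is counted as held in both series, although the filter of at least 10 counts in every library removed it before testing. No called RAS effect changed direction in any setting, but the settings reuse the same libraries, so this is no independent check. Without each library in turn, the RAS comparison called 1043 to 1818 genes and 3 to 5 members in the S6K1 series (1859 and 6 with all libraries) and 2050 to 4199 genes and 6 to 17 members in the S6K1/S6K2 series (3646 and 15). KO RAS called 0 to 22 genes, DKO RAS 1 to 2, the difference of the RAS effects 0 to 290, and the macrophage slope 1614 to 4006 genes and 5 to 12 members (3258 and 9). With the replicate block, the RAS comparison of the S6K1 series called 5085 genes and 17 members, KO RAS 583 genes and 1 member, DKO RAS 8 genes (Ctss of the wider lists among them), the difference of the RAS effects 58 genes, and the slope 175 genes and 1 member; the slopes of Atp6v0d1 and Idua turned to -0.028 and 0.12. The cause was not tested. KO RAS called 108 genes with no filter, 63 with DESeq2, 0 with the 6 compared libraries and 4 with all 18, and DKO RAS 11, 10 and 7 with no filter, DESeq2 and all 18. DESeq2 called 143 genes for the difference of the RAS effects. The slope called 1475 genes and 2 members in the S6K1 series alone, and 350 and 1 in the S6K1/S6K2 series alone. With the macrophage level as a term, chosen after the data were seen, the RAS comparison of the S6K1 series called 2849 genes and 10 members, and KO RAS 5 genes.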
